A study of Mus musculus with 12 samples.

Results

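The genes described are 9 identity genes of deep-layer cortical neurons, Syt6, Foxp2, Tle4, Bcl11b, Tbr1, Fezf2, Sox5, Rprm and Nxph4, taken by name as 9 of the 56748 genes in the count table. They were chosen by name with earlier results of these libraries in view, and which values they were selected on is not recorded. The edgeR comparison of exposed with unexposed wildtype, in which Syt6 and Foxp2 were lower in the exposed group, is taken as the one that chose them and is given as a description only. The other comparisons may have been in view too, so their tests are not independent evidence. RNA of mouse brain, described by the series as adult forebrain, was sequenced in 12 libraries, 3 in each of 4 groups. The groups were wildtype, a Notch conditional knockout (genotype label htr3a Notch KO, called knockout here), prenatally valproic acid-exposed wildtype, and the knockout with that exposure. The sources used here do not name the deleted Notch gene, the Cre line, the age beyond adult, or the valproic acid dose and gestational day. They also do not tie libraries to separate animals, so p-values measure only the spread between these libraries, which may be technical. Valproic acid is an antiepileptic drug that also inhibits histone deacetylases, and prenatal exposure to it is used in rodents to model autism.

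Neurons of cortical layers 5 and 6 send axons out of the cortex, to the brainstem, spinal cord and thalamus, and a small set of transcription factors fixes these identities during development. Fezf2 and its downstream factor Bcl11b (also called Ctip2) specify the corticospinal neurons of layer 5, while Tbr1 and Sox5 specify the corticothalamic neurons of layer 6 and restrain Fezf2 there. Tle4, a Groucho-type corepressor, and Foxp2, a forkhead factor linked to speech in humans, mark layer 6. Syt6 (a synaptotagmin), Rprm (a p53-induced protein that stops the cell cycle) and Nxph4 (a secreted ligand of neurexins) are used as layer 6 markers. Foxp2 and Bcl11b are also strongly expressed in striatal projection neurons, so bulk forebrain RNA holds these transcripts from more than 1 region. In bulk tissue fewer cells of a type and less RNA per cell cannot be told apart.

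Promoter windows of 300 bases, 250 before and 50 after a start site, were available from RefSeq (build GRCm38.p6) for 7 of the 9 genes, with 10 start sites in all, and not for Foxp2 or Nxph4. They were searched on both strands for 4 letter strings: a forkhead core (GTAAACA), a SOX core (AACAAT), a T-box core (AGGTGT), which are bound by the factor families of Foxp2, Sox5 and Tbr1, and TATAAA. The 4 windows that hold any of these strings are shown, because 3 of them belong to genes that were lower in exposed libraries of both genotypes (Syt6, Tle4, Bcl11b) and the other to Tbr1, which was not. Each runs 5′ to 3′ on the gene's own strand, and capitals mark the match.
Syt6, first of its 3 start sites (chr3:103574995-103575294, plus strand): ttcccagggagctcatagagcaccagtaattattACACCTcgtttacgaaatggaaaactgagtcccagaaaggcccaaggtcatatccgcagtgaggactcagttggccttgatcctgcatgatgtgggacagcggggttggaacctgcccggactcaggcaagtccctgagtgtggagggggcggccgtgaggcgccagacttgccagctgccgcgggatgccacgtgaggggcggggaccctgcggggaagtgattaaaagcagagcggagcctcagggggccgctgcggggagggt
Tle4, second of its 2 start sites (chr19:14597164-14597463, minus strand): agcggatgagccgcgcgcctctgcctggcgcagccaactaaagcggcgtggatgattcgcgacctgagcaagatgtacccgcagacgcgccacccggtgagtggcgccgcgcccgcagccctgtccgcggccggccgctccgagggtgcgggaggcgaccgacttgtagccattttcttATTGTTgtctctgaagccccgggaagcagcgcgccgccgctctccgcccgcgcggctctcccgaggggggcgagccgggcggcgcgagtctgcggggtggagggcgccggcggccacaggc
Bcl11b (chr12:108003365-108003664, minus strand): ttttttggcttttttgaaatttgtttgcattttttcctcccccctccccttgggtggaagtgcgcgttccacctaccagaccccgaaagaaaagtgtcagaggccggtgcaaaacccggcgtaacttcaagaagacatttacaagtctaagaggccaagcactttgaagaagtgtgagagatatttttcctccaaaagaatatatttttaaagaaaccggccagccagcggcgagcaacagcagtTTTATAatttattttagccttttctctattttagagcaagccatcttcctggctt
Tbr1 (chr2:61804203-61804502, plus strand): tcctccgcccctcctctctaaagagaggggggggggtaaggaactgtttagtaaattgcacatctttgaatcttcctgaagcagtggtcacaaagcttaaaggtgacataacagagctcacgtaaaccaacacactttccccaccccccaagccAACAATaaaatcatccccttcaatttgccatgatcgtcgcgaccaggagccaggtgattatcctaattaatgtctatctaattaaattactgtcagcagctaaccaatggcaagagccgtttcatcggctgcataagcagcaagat
The Syt6 match is the T-box string, on the opposite strand at base 35 of the window. The Tle4 match is the SOX string on the opposite strand (base 180), the Tbr1 match is the SOX string on the same strand (base 155), and the Bcl11b match is the TATA string on the opposite strand at base 246. The T-box string was in 1 of the 10 windows, the SOX string in 2, the TATA string in 1 and the forkhead string in 0, against 13.7%, 10.7%, 13.6% and 3.65% of all 32851 promoter windows in the table. The 10 windows held 3 (Sox5) to 44 (Tle4) CG pairs, with a median of 19 against 7 over all windows. These windows are not independent, since Syt6 has 3 of them, the first and second largely overlapping, and Tle4 has 2. Letter matches of this length are a description of the sequence and do not show binding.

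All 9 genes passed the count filter, and the lowest count of any of them in any library was 42 (Nxph4). Library totals ran from 16887885 to 24944681 counts, and the mitochondrial genome took 12.2% to 18.6% of them. The highest mitochondrial share was that of exposed knockout replicate 1, which was also the lowest library for Foxp2, Bcl11b, Rprm and Nxph4. Replicate 3 of each exposed group all but lacked Xist, a transcript of the inactive X chromosome in females (12 and 6 counts, against 5919 to 10767 in the others). Cortical identity was present throughout: Slc17a7, the vesicular glutamate transporter of cortical neurons, averaged 937 to 1135 CPM (counts scaled to a common library size with TMM factors) in the 4 groups.

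Per kilobase of exon, the order of the 9 levels in wildtype was Rprm, Tbr1, Bcl11b, Tle4, Fezf2, Syt6, Nxph4, Sox5 and Foxp2. Rprm lay at 29.4 ± 2.03 CPM per kilobase (mean ± SD, n = 3), Tbr1 at 12.8 ± 1.71, Syt6 at 5.43 ± 0.49 and Foxp2 at 1.03 ± 0.06. Of the neighbours in that order only Tbr1 and Bcl11b (10.7 ± 0.58 CPM per kilobase) overlapped between libraries. The lengths are unions of all annotated exons on the older build GRCm38, so the levels of genes with many alternative exons, such as Foxp2 and Sox5, are understated. The widest spread over the 12 libraries was that of Nxph4 (2.68-fold from lowest to highest library) and Syt6 (2.18-fold), and the narrowest that of Sox5 (1.29-fold).

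**Figure D1:**
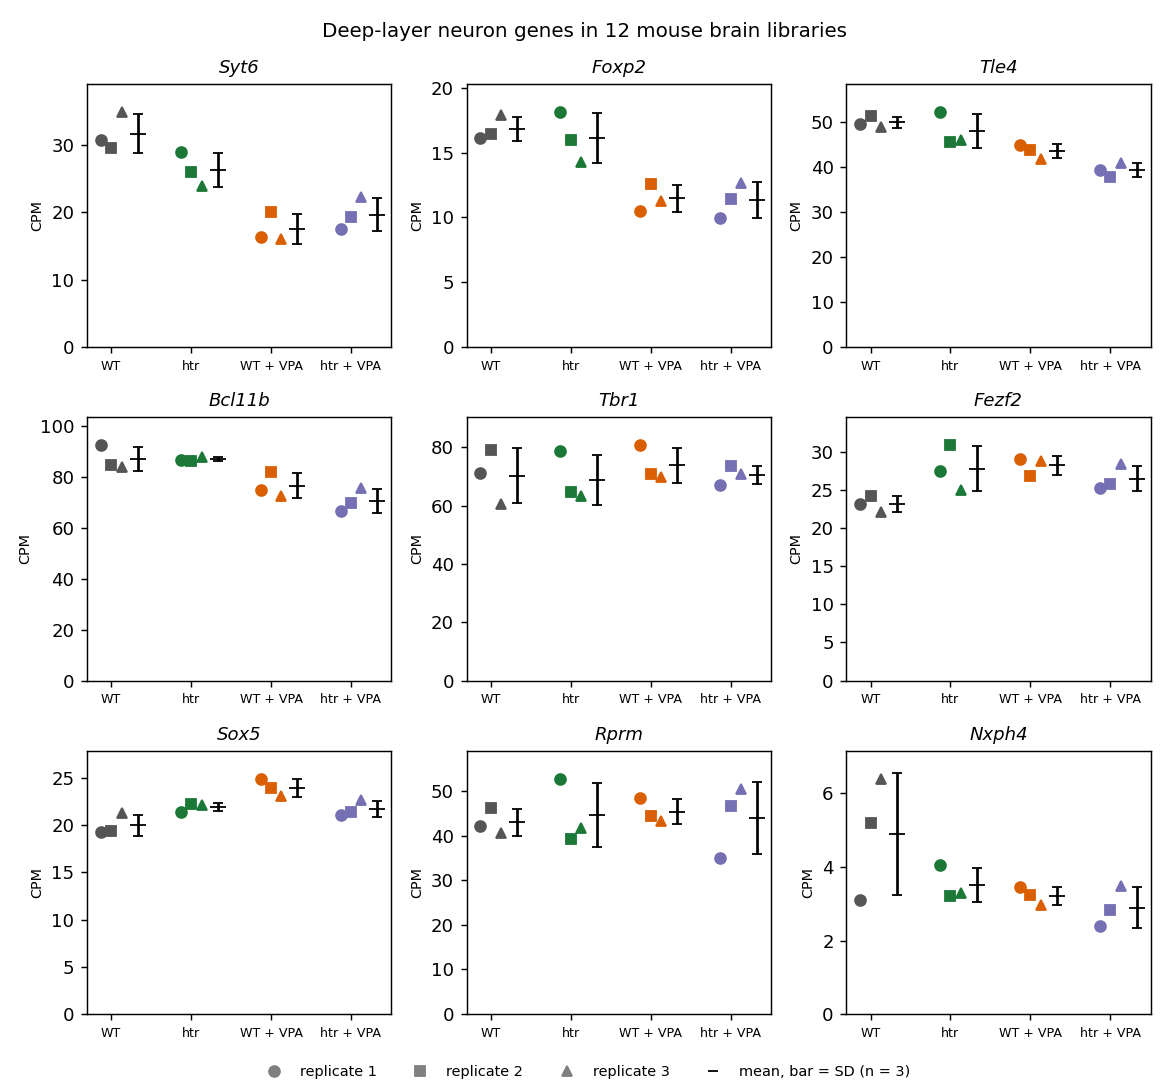
Level of each of the 9 genes (y axis, CPM, starting at 0) in the 4 groups (x axis, VPA = valproic acid); each marker is a library, and the bar gives the mean and SD of 3. Wildtype libraries held Syt6 at 29.5 to 34.9 CPM and exposed wildtype ones at 16 to 20.1 CPM, whereas Tbr1 overlapped among all 4 groups.

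Exposed and unexposed knockout libraries were compared first, since they share no library mean with the wildtype comparison, although one fit over all 12 libraries gave both their estimate of spread. Syt6, Foxp2, Tle4 and Bcl11b each lay lower in all 3 exposed knockout libraries than in any unexposed one, and 0 of the 9 reached an adjusted p of 0.05 by edgeR (quasi-likelihood F test, p-values adjusted by Benjamini-Hochberg across the 17995 genes tested). Over all tested genes 0.0556% passed in this comparison, and 10.3% were lower and 9.88% higher without overlap between the groups, against 4 and 0 of the 9. At an unadjusted p under 0.05 there were 4 of the 9 (the same genes) and 14.9% of all genes. The median log2 fold change was -0.27 over the 9 and 0.01 over all tested genes.

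Foxp2 stood at 18.1, 15.9 and 14.3 CPM in unexposed knockout replicates 1 to 3 and at 9.94, 11.4 and 12.7 CPM in the exposed ones. Its log2 fold change was -0.51 ± 0.12 (SE), with an edgeR adjusted p of 0.0627. Syt6 stood at 28.9, 25.9 and 23.9 CPM unexposed and 17.4, 19.3 and 22.2 CPM exposed. The highest exposed library lay just below the lowest unexposed one, and the log2 fold change was -0.42 ± 0.11 (SE, edgeR adjusted p = 0.0861). Bcl11b, the corticospinal determinant, was tight in the unexposed knockout at 86.9, 86.2 and 87.8 CPM, and every exposed library lay below that, at 66.7, 69.7 and 75.7 CPM. Its log2 fold change was -0.30 ± 0.07 (SE, edgeR adjusted p = 0.0627). Tle4 stood at 52.2, 45.5 and 46.1 CPM unexposed and 39.2, 37.7 and 40.8 CPM exposed (log2 -0.29 ± 0.07 SE, edgeR adjusted p = 0.0854). These 4 results move with the processing in both directions: all 4 passed under DESeq2's Wald test and with no count filter. With a sex term from Xist the edgeR adjusted p was 0.245 for Syt6, 0.213 for Foxp2, 0.248 for Tle4 and 0.214 for Bcl11b, and without exposed knockout replicate 1 it was 0.333, 0.276, 0.262 and 0.262. Without exposed wildtype replicate 3, a library outside this comparison that enters the shared estimate of spread, Foxp2, Bcl11b and Tle4 passed. The log2 fold changes of the 4 genes were below 0 under each of 22 other settings tried. Since the groups did not overlap for these genes, leaving out a library could hardly have changed that sign. The constant sign is therefore a description and adds no support.

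The other 5 genes overlapped between exposed and unexposed knockout. Tbr1, the layer 6 determinant, was at 63.3 to 78.7 CPM unexposed and 67.2 to 73.7 CPM exposed, with a log2 fold change of 0.03 and a 95% interval from -0.16 to 0.23. Fezf2 (log2 -0.07, interval -0.25 to 0.11) and Sox5 (log2 -0.01, interval -0.19 to 0.16) were bounded as closely. Rprm varied more, from 39.2 to 52.7 CPM unexposed and from 34.9 to 50.4 CPM exposed, with a log2 interval from -0.28 to 0.25. Nxph4 was measured with the least precision, at 3.2 to 4.05 CPM unexposed and 2.39 to 3.47 CPM exposed (log2 -0.27, interval -0.75 to 0.21). Of these 5 intervals only that of Nxph4 reaches the log2 fold change of Foxp2.

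In wildtype, the comparison known when the genes were chosen, exposed libraries were lower for the same 4 genes and higher for 2 others, with no overlap between groups. Syt6 was at 30.7, 29.5 and 34.9 CPM in wildtype replicates 1 to 3 and at 16.4, 20.1 and 16 CPM in the exposed ones, 1.81-fold lower (log2 -0.86 ± 0.11 SE). Foxp2 was at 16.1, 16.4 and 17.9 CPM against 10.5, 12.6 and 11.3 CPM exposed, 1.47-fold lower (log2 -0.55 ± 0.12 SE). Tle4 went from 49.9 ± 1.19 to 43.5 ± 1.53 CPM (mean ± SD, n = 3) and Bcl11b from 87 ± 4.74 to 76.5 ± 4.93 CPM, log2 fold changes of -0.20 and -0.18. Fezf2 was at 22.2 to 24.3 CPM unexposed and 26.8 to 29.1 CPM exposed (log2 0.28 ± 0.09 SE), and Sox5 at 19.3 to 21.3 and 23 to 24.9 CPM (log2 0.26 ± 0.08 SE). Whether the Fezf2 and Bcl11b transcripts, which moved in opposite directions, came from the same cells was not tested. Tbr1 (log2 0.07) and Rprm (log2 0.08) overlapped, and so did Nxph4, whose wildtype libraries ranged from 3.1 to 6.39 CPM.

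By edgeR's adjusted test 2 of the 9, Syt6 and Foxp2, were past the threshold in wildtype, both lower, against 0.895% of all genes in either direction and 0.689% lower; nothing is read from this count, since the genes were proposed with it known. Of the 9, 4 were lower and 2 higher without overlap, against 10.9% and 9.84% of all genes, and 7 had an unadjusted p under 0.05, against 14.2%. For the same reason nothing is read from these counts either. The count of 2 became 1, with Foxp2 lost, without wildtype replicate 2 or 3, without exposed wildtype replicate 1 or 3, and without both libraries lacking Xist, and 3, with Nxph4 added, without wildtype replicate 1.

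**Figure D2:**
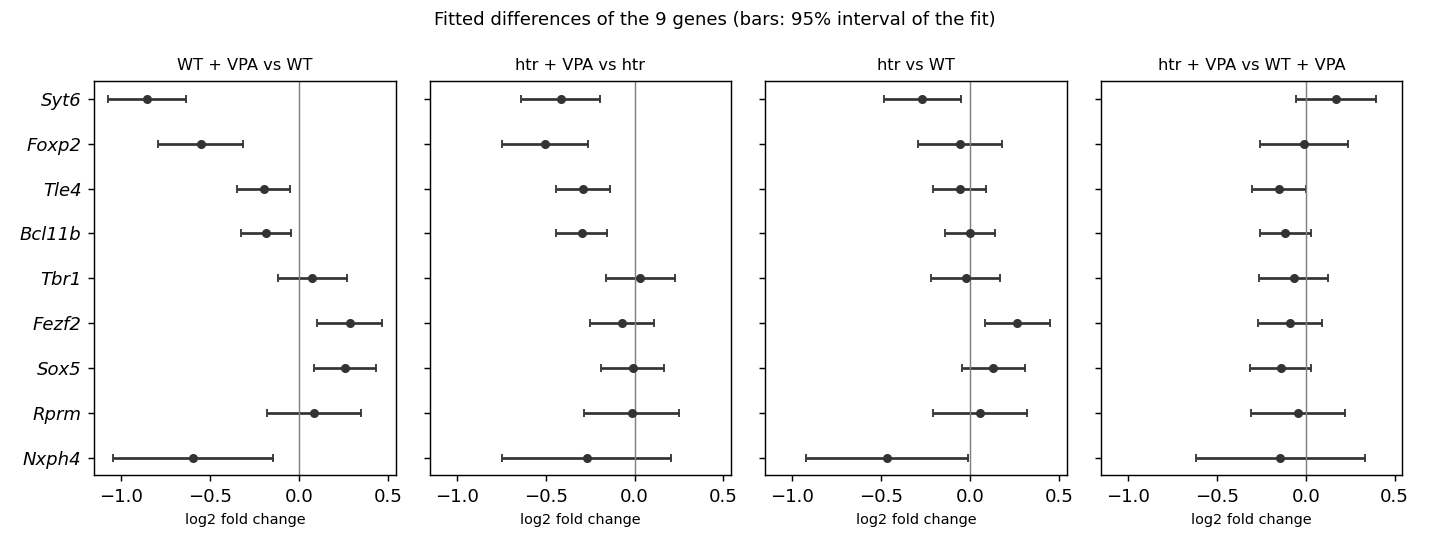
Fitted log2 fold change (x axis) of each of the 9 genes (y axis) in 4 comparisons, with 95% intervals; values left of 0 are lower in the first-named group. Syt6, Foxp2, Tle4 and Bcl11b lie left of 0 in exposed wildtype (-0.86, -0.55, -0.20 and -0.18) and in exposed knockout (-0.42, -0.51, -0.29 and -0.30). The wildtype comparison is taken as the one that chose the genes and is a description only. In exposed against unexposed knockout 0 of the 9 passed edgeR's adjusted test. The intervals of Tbr1 and Rprm span 0 in all 4 comparisons.

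Whether the exposure acted differently in the 2 genotypes was examined by the interaction, the knockout difference minus the wildtype one. None of the 9 passed (0% of all genes did), while 3 of the 9 and 5.97% of all genes had an unadjusted p under 0.05. These 3 were Syt6 (log2 0.44 ± 0.15 SE), Fezf2 (-0.36 ± 0.12 SE) and Sox5 (-0.27 ± 0.12 SE), each with an edgeR adjusted p of 0.833. The interaction uses the wildtype comparison that was known when the genes were chosen. For Foxp2 the interaction was 0.05, with a 95% interval from -0.29 to 0.39.

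Knockout was set against wildtype in unexposed and in exposed brain. None of the 9 passed in either comparison, in which 0.0389% and 0.05% of all genes did. These comparisons share the wildtype or the exposed wildtype libraries with the result known beforehand. Without valproic acid Syt6 was lower in all 3 knockout libraries (26.3 ± 2.52 against 31.7 ± 2.86 CPM, mean ± SD, n = 3; log2 -0.27 ± 0.10 SE, edgeR adjusted p = 1). Fezf2 (27.8 ± 2.96 against 23.2 ± 1.03 CPM, log2 0.27 ± 0.09 SE) and Sox5 (21.9 ± 0.47 against 20 ± 1.11 CPM, log2 0.13 ± 0.08 SE) were higher without overlap, with the same adjusted p of 1. Across all genes 3.58% were higher and 3.81% lower without overlap, against 2 and 1 of the 9, and 3 of the 9 had an unadjusted p under 0.05, against 3.13%. Foxp2 (log2 -0.06), Tle4 (-0.06), Bcl11b (-0.00), Tbr1 (-0.02) and Rprm (0.06) overlapped, and Nxph4 was at 3.51 ± 0.47 against 4.89 ± 1.66 CPM (log2 -0.47, interval -0.92 to -0.01).

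Under valproic acid all 9 log2 differences between knockout and wildtype were between -0.15 and 0.17. Tle4 (39.2 ± 1.56 against 43.5 ± 1.53 CPM, mean ± SD, n = 3) and Sox5 (21.7 ± 0.84 against 24 ± 0.92 CPM) were lower without overlap, 2 of the 9 against 6.23% of all genes, with 0 of the 9 higher against 6.96% and edgeR adjusted p-values of 0.675 and 0.749. At an unadjusted p under 0.05 there were 0 of the 9 and 7.44% of all genes. The difference was -0.01 for Foxp2 (interval -0.26 to 0.24) and 0.17 for Syt6 (interval -0.05 to 0.40).

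Other deep-layer genes were read next. Of 15 tested other layer 5 genes (Chrna6, the sixteenth, had too few counts) and 13 other layer 6 and 6b genes, 0 passed in any of the comparisons. Over all tested genes 0% (interaction) to 0.895% (exposed against unexposed wildtype) passed, so few calls could be looked for in lists of this size. In exposed against unexposed knockout their median log2 fold changes were -0.06 and -0.03, and in wildtype 0.03 and -0.04. In knockout 4 of the layer 5 genes had a positive and 11 a negative log2 fold change, and 5 and 8 of the layer 6 genes. Over all tested genes 48.2% were negative there. The corticothalamic marker Ntsr1, a neurotensin receptor, was 5.25 and 6.13 CPM on average in unexposed and exposed knockout (log2 0.23), and Hs3st4, a heparan sulfate sulfotransferase of layer 6, 75.5 and 74.2 CPM (log2 -0.03). The subplate markers Ccn2 and Cplx3 had log2 fold changes of 0.00 and -0.03. The lowest of the layer 6 list was Lmo3, a LIM-only cofactor gene, at 87.6 and 73.1 CPM (log2 -0.26, edgeR adjusted p = 0.146), which stood at -0.41 in exposed knockout against exposed wildtype (0.0607). Among layer 5 genes Ldb2, a LIM-domain binding cofactor, had a log2 fold change of -0.33 (edgeR adjusted p = 0.09) and the transcription factor gene Etv1 one of -0.25 (0.188). The lowest of the 28 was Sla2 (log2 -0.69, edgeR adjusted p = 0.485), at 0.677 and 0.427 CPM. On the other side stood Lratd2 (log2 0.35, edgeR adjusted p = 0.205), Slco2a1 (0.35, 0.516) and Tshz2 (0.27, 0.285). The summed level of the layer 5 list was 535 to 554 CPM in unexposed and 495 to 519 CPM in exposed knockout, and of the layer 6 list 411 to 418 and 393 to 401 CPM. These sums did not overlap, but abundant genes weigh most in them. Crym averaged 126 and 107 CPM and Pcp4 80.1 and 68.1 CPM, with Lmo3 as above, while Tshz2 rose from 62.6 to 75.4 CPM. The mean log2 CPM of each list, in which genes count alike, overlapped between unexposed and exposed knockout. In wildtype the sums overlapped, at 519 to 563 and 488 to 547 CPM for layer 5 and 414 to 460 and 416 to 436 CPM for layer 6.

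Of 19 upper-layer genes 15 had a positive log2 fold change in exposed wildtype (median 0.16) and 1 passed, the netrin receptor gene Unc5d, at 27.1 against 19.5 CPM (log2 0.47, edgeR adjusted p = 0.0214). In knockout the median was 0.03, with 11 of 19 positive and 0 past the test. Over all tested genes 48.5% were negative in exposed wildtype and 48.2% in exposed knockout, and 0.895% and 0.0556% passed. Of 10 general cortical excitatory genes, 9 were positive in exposed wildtype (median 0.16) and 6 in exposed knockout (median 0.11), with 0 past the test in either. Slc17a7 had a log2 fold change of 0.28 in wildtype and 0.18 in knockout.

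**Figure D3:**
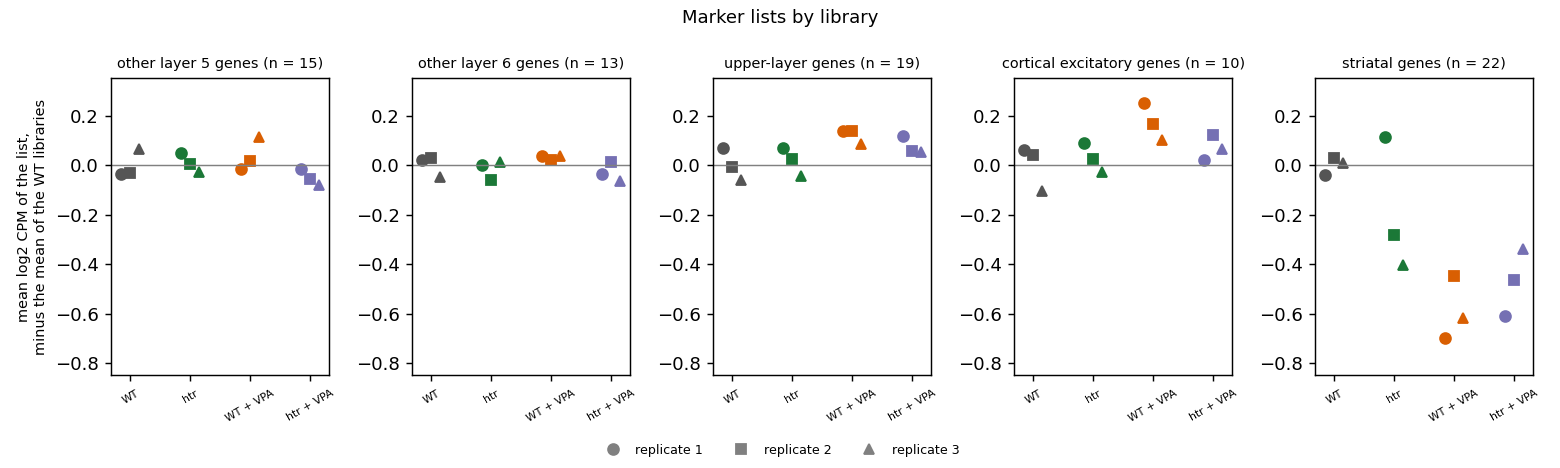
Mean log2 CPM of 5 marker lists in each library (y axis), with the mean of the wildtype libraries set to 0, by group (x axis); each marker is a library. The 2 lists of other deep-layer genes stay close to 0, and the striatal list lies below every wildtype library in all 6 exposed libraries and in unexposed knockout replicates 2 and 3.

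Markers of striatal projection neurons also differed between the groups. All 22 were negative in exposed wildtype (median log2 -0.63, 8 past the test), and 21 of 22 in exposed knockout (median -0.27, 0 past the test). Of all tested genes 48.5% and 48.2% were negative in these comparisons, and 0.895% and 0.0556% passed in either direction. The 3 wildtype libraries summed to 3118 to 3316 CPM and the exposed ones to 2118 to 2365 CPM, with 2510 to 3595 CPM in knockout and 2357 to 2755 CPM in exposed knockout. In knockout these sums overlapped, since unexposed replicates 2 and 3 were already low (2691 and 2510 CPM). In unexposed knockout replicates 1 to 3, Syt6 was at 28.9, 25.9 and 23.9 CPM and Foxp2 at 18.1, 15.9 and 14.3 CPM. Tle4 was at 52.2, 45.5 and 46.1 CPM there, and Bcl11b at 86.9, 86.2 and 87.8 CPM. None of the 22 was at 0 in any library. The 4 with the smallest p in exposed wildtype were Tac1 (log2 -0.89), Rxrg (-0.63), Syndig1l (-0.58) and Drd1 (-0.82), with edgeR adjusted p-values of 1.02e-04, 0.00139, 0.00246 and 0.00246. Tac1, the substance P precursor of the striatum, was at 71.6 ± 8.8 CPM in knockout and 50.7 ± 1.91 CPM in exposed knockout (mean ± SD, n = 3; log2 -0.50, edgeR adjusted p = 0.0593), and the D1 dopamine receptor gene Drd1 at 42.1 ± 8.48 and 30.6 ± 3.29 CPM (log2 -0.46, 0.0918). Olfactory bulb markers had negative log2 fold changes, 9 of 9 in both exposed groups (median -1.51 and -0.88), with summed levels of 202 to 361 and 141 to 155 CPM in wildtype and 190 to 282 and 147 to 182 CPM in knockout. Single libraries carry much of this difference: the mean log2 CPM of the list was 2.20, 2.27 and 4.47 in wildtype replicates 1 to 3 and 1.84 to 2.02 in exposed wildtype, and 2.37, 3.02 and 3.71 in knockout against 1.80 to 2.67 exposed. Of the olfactory list only Synpr passed, in wildtype. Synpr made up most of the summed levels, averaging 185 and 120 CPM in unexposed and exposed wildtype and 172 and 130 CPM in knockout. Choroid plexus markers were higher in exposed knockout (10 of 10, median log2 0.62, summed level 1838 to 1987 against 2628 to 3155 CPM) and had a median of 0.03 in exposed wildtype. The tight junction gene Cldn2 was the only one of them to pass, in exposed knockout against exposed wildtype (log2 0.94). Of the interneuron list Htr3a passed in both knockout comparisons, higher in knockout (log2 1.25 unexposed and 0.79 exposed). The part of these tissues in the levels of the 9 genes was not tested.

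The 4 genes, which were already lower without overlap in these same libraries, were also set against the lists within each library. Lower values relative to a list are therefore no separate support. Relative to the mean log2 CPM of the cortical excitatory list, Syt6, Foxp2, Tle4 and Bcl11b were lower in exposed libraries without overlap in both genotypes. The differences were -1.03, -0.72, -0.37 and -0.36 in wildtype and -0.46, -0.54, -0.33 and -0.34 in knockout on the log2 scale. They include shifts of the list itself, which averaged 6.99 unexposed and 7.17 exposed in wildtype, and 7.02 and 7.06 in knockout. The striatal list averaged 6.05 and 5.46 in wildtype, and 5.85 and 5.57 in knockout. Relative to the striatal list, Foxp2 differed by 0.04 in wildtype, where the groups overlapped, and by -0.22 in knockout, where they did not. Syt6 relative to the striatal list differed by -0.27 in wildtype, without overlap, and by -0.14 in knockout, with overlap. Tle4 and Bcl11b were higher relative to the striatal list in exposed wildtype (0.39 and 0.40) and overlapped in knockout (-0.01 and -0.02). Tbr1 differed from the cortical list by -0.09 in wildtype and 0.00 in knockout. Against that list Nxph4 was lower (-0.71) and Fezf2 higher (0.11) in exposed wildtype without overlap, and both overlapped in knockout. Sox5 and Rprm overlapped in both genotypes. Against the striatal list Fezf2 (0.87), Sox5 (0.85), Rprm (0.67) and Tbr1 (0.67) were higher in exposed wildtype without overlap. In knockout only Tbr1 (0.32) was. These are descriptions with no test.

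**Figure D4:**
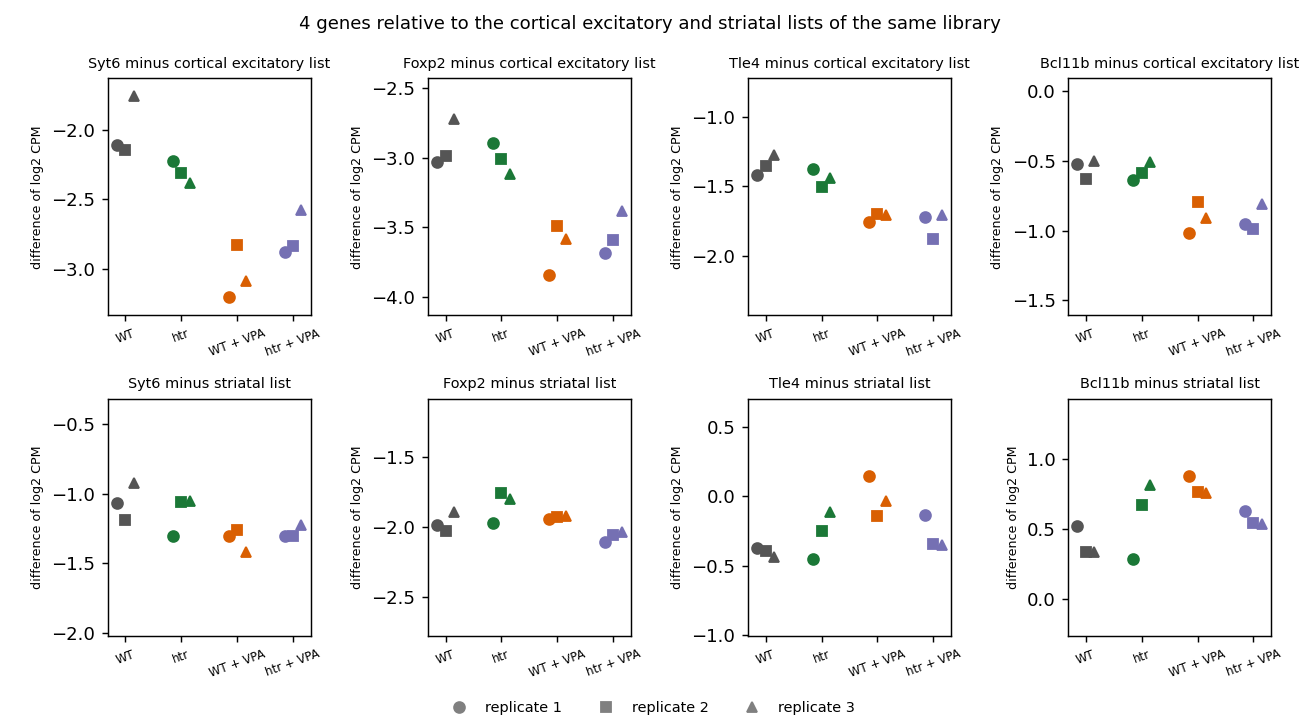
Log2 CPM of Syt6, Foxp2, Tle4 and Bcl11b minus the mean log2 CPM of the cortical excitatory list (top row) or the striatal list (bottom row) of the same library, by group (x axis); each marker is a library. Relative to the cortical list all 6 exposed libraries lie below the 6 unexposed ones for each of the 4 genes. These genes were already lower in the exposed libraries of each genotype before the list was subtracted. Relative to the striatal list Foxp2 ranges from -2.03 to -1.89 in wildtype and from -1.94 to -1.92 in exposed wildtype.

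The genes whose profile over the 12 libraries was most like those of the 4 were sought by Pearson's r of log2 CPM, as a description of likeness without a p, over libraries that share the group differences above. For Syt6 they were 2410004B18Rik (r = 0.97), Tac1 (0.97) and Klhl13 (0.96), and for Foxp2 Klhl13 (0.98), 2410004B18Rik (0.98) and Pde7b (0.97), a cyclic AMP phosphodiesterase. Pdpk1 (0.96), Srsf12 (0.93) and Ccng2 (0.92) were most like Bcl11b, and Ogfrl1 (0.94), Slc2a13 (0.93) and St8sia3 (0.93) most like Tle4. The likeness was lower for the rest, whose closest genes were Acsl5 for Tbr1 (0.91), Dok5 for Rprm (0.90), Bhlhb9 for Nxph4 (0.88), Ftsj3 for Fezf2 (0.87) and Ssr1 for Sox5 (0.87). None of the genes named here was in the lists of other deep-layer genes, and Tac1 was in the striatal list.

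Close relatives of the 9 genes were read for comparison. Of 27 tested paralogs 0 passed in any comparison, in which 0% to 0.895% of all genes did. Their median log2 fold change was 0.00 in exposed knockout and 0.07 in exposed wildtype. Foxp1, the forkhead relative of Foxp2 that is also abundant in striatum, was at 67.4 and 52.5 CPM on average in unexposed and exposed knockout (log2 -0.36, edgeR adjusted p = 0.0593), while Foxp4 had a log2 fold change of 0.14. Bcl11a, the relative of Bcl11b, had -0.16, Sox6 0.00 and Sox13 0.23. The corepressor genes Tle1, Tle2, Tle3, Tle5 and Tle6 had 0.06, 0.38, 0.11, 0.21 and 0.04. The neurexophilin genes Nxph1, Nxph2 and Nxph3 had -0.26, -0.70 and -0.02, and Nxph3, which is also in the layer 5 list, was at 32.6 and 32.2 CPM.

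Of the annotated neighbours that share exon bases with the 9, Atg4a-ps opposite Syt6 had 37 counts in all libraries together against 6112 for Syt6, and Sox5os1 opposite Sox5 had 0.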

How the data were processed

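Per the labels, RNA was column-purified, depleted of ribosomal RNA and made into libraries with an NEBNext Ultra kit. The submitters' processing notes name HISAT2 and GRCm39 without versions; counter, annotation and strand use: not given in the sources used here. Raw counts for each Ensembl identifier (whole numbers with differing totals) were deposited by the authors. Symbols came from GENCODE M21 (GRCm38) and matched 52073 of 56748 identifiers, with 99.51% of counts; Lratd2 and Tle5 were matched by older symbols. Genes kept by filterByExpr (17995) were scaled by TMM and fitted over all 12 libraries, 1 mean per group, by edgeR 4.0.16's robust quasi-likelihood method in R 4.3.3, two-sided, Benjamini-Hochberg adjusted over all tested genes at 0.05. SE is the fold change over the root of F. Log2 CPM has a prior count of 2. The model was tested on simulated data, and the outcome is not reported here. Replicates differed by more than sampling noise in every group. Figures used matplotlib 3.10.9.

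The members, lists and settings were chosen with earlier results of these data known. All 9 genes are named; of each list, up to 4 genes past the test by smallest p, Slc17a7, the paralogs, and the 3 genes most like each member with a mean of at least 1 CPM. Ntsr1, Hs3st4, Ccn2, Cplx3, Ldb2, Etv1, Sla2, Lmo3, Lratd2, Slco2a1 and Tshz2 were named after their values were seen, and some genes that the rule allows are not reported here. Alternatives varied the scaling, filter, tool, libraries and covariates.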

Additional observations from a re-analysis of the deposited data

How the results depend on the processing

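In exposed against unexposed knockout, 10 genes and 0 of the 9 members passed. The genes numbered 391 with no count filter, 193 with DESeq2, 38 with only the libraries compared and 2 with a sex term from Xist, and the members 4 with no filter and 4 with DESeq2. Leaving out 1 library at a time gave 2 (without exposed knockout replicate 1) to 162 genes (without exposed wildtype replicate 3) and 0 to 3 members. In knockout against wildtype, 7 genes became 15 with no filter and 11 with only the libraries compared, and 6 to 9 without 1 library. Among exposed libraries, 9 genes became 60 with no filter, 25 with DESeq2, 29 without both libraries lacking Xist, and 7 to 86 without 1 library (86 without exposed wildtype replicate 3). In exposed against unexposed wildtype, 161 genes became 512 with no filter, 333 with DESeq2, 69 with the sex term, 40 without both libraries lacking Xist, and 14 (without wildtype replicate 3) to 225 without 1 library. The members numbered 2 there, 1 without both libraries lacking Xist, and 1 to 3 without 1 library. The interaction gave 0 genes, 5 with no filter, 4 without both libraries lacking Xist, and 0 to 1 without 1 library. The cause of these moves was not tested.

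With the replicate number as a block, 6 genes passed in exposed against unexposed knockout, and the block changed no call of a member. Same-numbered libraries had correlated deviations of r = 0.06, 0.09 and 0.11 in unexposed knockout against wildtype, where each library correlated best with its own number, and of -0.06 to 0.05 in the other comparisons. In no comparison was every pair over 0.1, so the numbers were not taken as pairs.

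Member values close to 0 changed sign. Upper-quartile scaling gave log2 fold changes of 0.0017 for Sox5 (exposed against unexposed knockout) and 0.0043 for Foxp2 (exposed knockout against exposed wildtype). Bcl11b in unexposed knockout against wildtype came to 0.0019 with a filter of 1 CPM in 3 libraries, 0.00062 with only the libraries compared and 0.00057 without both libraries lacking Xist, where the interaction of Foxp2 was -0.062. Without 1 library, values in exposed against unexposed knockout ran from -0.027 to 0.14 for Tbr1, -0.14 to 0.012 for Fezf2, -0.044 to 0.0049 for Sox5 and -0.13 to 0.12 for Rprm. In unexposed knockout against wildtype they ran from -0.15 to 0.021 for Foxp2, -0.028 to 0.045 for Bcl11b, -0.13 to 0.067 for Tbr1 and -0.084 to 0.14 for Rprm. Among exposed libraries they ran from -0.099 to 0.067 for Foxp2, -0.11 to 0.0019 for Tbr1 and -0.15 to 0.091 for Rprm, and for Tbr1 in exposed wildtype from -0.022 to 0.17. The interaction ran from -0.042 to 0.14 for Foxp2, -0.13 to 0.066 for Tbr1 and -0.21 to 0.041 for Rprm.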

Other observations

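Genes that act with the 9, such as the histone deacetylases and chromatin proteins recruited by Bcl11b and Tle4, neurexins bound by neurexophilins, and factors above or below Tbr1 and Fezf2, were read as a list of 22. In exposed against unexposed knockout 0 passed edgeR's test, against 0.0556% of all genes, with a median log2 fold change of -0.03. Cntnap2, which Foxp2 represses, stood at -0.25 (adjusted p = 0.197), Reln, a target of Tbr1, at -0.25 (0.324), Hdac2, a histone deacetylase, at -0.21 (0.188) and Lhx2, a cortical selector gene, at 0.27 (0.129). In exposed wildtype the same genes stood at -0.04, -0.11, -0.04 and 0.06, and 0 of the 22 passed, against 0.895% of all genes. These 4 were named after their values were seen.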
